A study of Bos taurus with 138 samples.

Results

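The genes described here are the bovine zinc finger genes whose symbol is ZNF followed by a number and whose mRNA reached a mean of 10 CPM (counts of a gene per 1e6 counts of its library) in the transcriptomes of at least 1 of 6 stages of oocytes and preimplantation embryos. CPM is not corrected for transcript length, so tests compare samples and not genes, and an order of genes by CPM serves only to choose which to describe. Of the 16706 gene symbols in the table, 271 have a ZNF number and 151 of these reached the minimum. The other 120 did not. The 151 genes were chosen by their transcriptome levels, so these levels are given as a description with no test. ZNF358, ZNF404 and ZNF582 stood just inside the minimum, with highest stage means of 10.5, 10.6 and 10.6 CPM. ZNF554, ZNF133 and ZNF521 stood just outside it, with 9.98, 9.80 and 9.68 CPM.

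Most ZNF genes encode proteins with tandem C2H2 zinc fingers, each finger a short fold that holds a zinc ion and contacts a few bases of DNA. Many also carry a KRAB domain, which recruits the corepressor TRIM28 and, through it, the histone methyltransferase SETDB1 and HP1 proteins to silence chromatin, especially at transposable elements and imprinted loci. Other ZNF proteins bind RNA, act in ribosome assembly or quality control, or serve in complexes that modify chromatin. Which of the 151 proteins carry a KRAB domain was not analysed here.

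The study separated ribosomes of Bos taurus oocytes and embryos on sucrose gradients and sequenced the RNA of the 10 fractions of each gradient beside total transcriptomes. Germinal vesicle (GV) oocytes came from slaughterhouse ovaries, metaphase II (MII) oocytes were matured in vitro, and 2-cell, 8-cell, morula and blastocyst embryos followed in vitro fertilization with semen of 1 bull. No group carried an allele or a treatment other than cycloheximide, which arrests ribosomes on mRNA and was given to all gradient samples before lysis, and each sample was a pool of oocytes or embryos. There were 2 gradients (A and B) and 3 transcriptomes (A, B and C) per stage, 138 libraries in all. The labels give replicate letters, and the paper calls the replicates of the fractions biological. Fractions F8 to F10 hold polysomes, mRNAs with several ribosomes, and F3 to F5 hold ribosomal subunits and monosomes. Their counts were summed within each gradient into a polysome pool and a monosome pool. In pooled samples, fewer cells that express a gene and less RNA per cell cannot be told apart.

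Totals were 22543737 to 39380638 counts per polysome pool, 16042805 to 42183098 per monosome pool and 3269386 to 11812567 per transcriptome. Genes that mark oocytes summed to 21933 to 27633 CPM in GV transcriptomes and 26.9 to 251 CPM in morulae. Genes that mark trophectoderm summed to 4919 to 5273 CPM in blastocysts and to at most 311 CPM before. The 10 listed markers of cumulus and granulosa cells summed to 524 to 759 CPM in GV oocytes, with STAR highest and none at 0, and their part in the results was not tested. The polysome pools of the 8-cell stage and the morula were the least alike. The median difference between gradients A and B over the 151 genes was 0.83 on the log2(CPM + 1) scale at the 8-cell stage and 1.12 in morulae, against 0.38 in GV oocytes. In 8-cell polysomes, 47 of the 151 genes had no count in gradient A, 23 had none in gradient B and 17 had none in both.

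The ZNF genes were at their most abundant in 2-cell embryos and at their least in blastocysts. In GV oocytes they took 0.710% ± 0.040 (SD, n = 3) of transcriptome counts. The share was 0.625% ± 0.057 after maturation to MII and 0.825% ± 0.065 in the 2-cell embryo. Thereafter their share was 0.509% ± 0.0040 at the 8-cell stage, 0.549% ± 0.021 in morulae and 0.288% ± 0.011 in blastocysts. Transcriptome levels of 49 genes peaked at the 2-cell stage, of 26 in GV oocytes, of 25 in morulae, of 22 at the 8-cell stage, of 20 in blastocysts and of 9 in MII oocytes. The minimum was reached at all 6 stages by 35 genes and at 1 stage by 30. In polysomes, 43 genes peaked in GV oocytes, 40 at the 2-cell stage and 12 in blastocysts. In the polysome pools A and B, the ZNF genes took 0.571% and 0.527% of all counts in GV oocytes, 0.627% and 0.647% at the 2-cell stage, 0.598% and 0.593% at the 8-cell stage and 0.264% and 0.228% in blastocysts. The 8-cell monosome pools stood apart with 1.251% and 1.253%, above every other pool and transcriptome, and ZNF574 had 4746 and 5443 CPM in them.

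**Figure D1:**
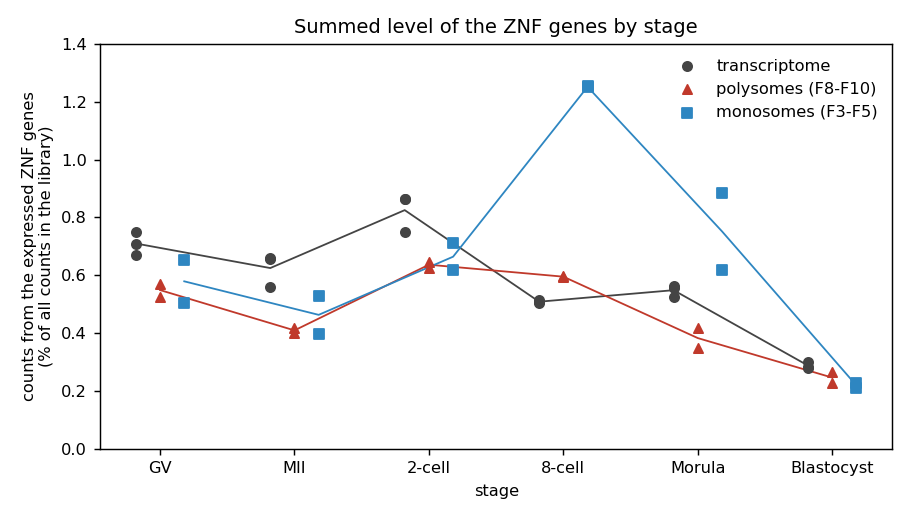
Share of all counts taken by the 151 ZNF genes (y axis, percent) at the 6 stages (x axis) in transcriptomes, polysome pools (F8 to F10) and monosome pools (F3 to F5); points are single libraries or pools, and lines join their means. The transcriptome share falls from 0.825% at the 2-cell stage to 0.288% in blastocysts, and the 2 monosome pools at the 8-cell stage stand above all other points at 1.25%.

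The 3 ZNF genes with the most counts per library in each stage are described here, an order that also depends on transcript length. ZNF215, a gene that is imprinted in humans, had 771, 635 and 727 CPM in the GV transcriptomes and 829, 842 and 586 CPM in the 2-cell transcriptomes. It had 30.8, 59.1 and 71.6 CPM at the 8-cell stage and 9.25, 7.45 and 6.90 CPM in blastocysts. ZNF226, a KRAB protein gene, and ZNF330, which encodes a nucleolar protein, were likewise lower at the 8-cell than at the 2-cell stage: ZNF226 had 606, 663 and 388 CPM there and 71.6, 61.5 and 77.9 CPM at the 8-cell stage. ZNF394, a SCAN and KRAB protein gene, had the opposite course, with 7.70, 7.13 and 10.2 CPM in 2-cell and 309, 439 and 449 CPM in 8-cell transcriptomes. ZNF638, whose protein silences incoming retroviral DNA, and ZNF207, whose protein binds BUB3 at kinetochores, were among those chosen at the 8-cell stage and in morulae. ZNF106, which encodes an RNA-binding protein, was among those chosen in blastocysts, with 262, 265 and 245 CPM. For ZNF215, ZNF226 and 11 other members, more than 50% of the values above 0 were not whole numbers, so their counts are estimates whose read assignment is uncertain.

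Between the 2-cell and 8-cell stages, when the bovine embryonic genome is activated, far more ZNF mRNAs fell in polysomes than rose. Of the 151 genes, 16 rose and 59 fell by more than 2-fold at an adjusted p below 0.05 in edgeR's quasi-likelihood test. This count took in all 151, of which 136 reached the transcriptome minimum at a stage outside this pair. Of the rest, ZNF41 and ZNF432 rose and ZNF7, ZNF227, ZNF592, ZNF621 and ZNF782 fell, and their changes are a description. Of all 14612 genes tested, 21% rose and 25.2% fell, and of the 9890 genes that reached the same transcriptome minimum, 25.9% rose and 25% fell. The ZNF share was 10.6% risen and 39.1% fallen. The median log2 change was -1.29 for the ZNF genes, -0.26 for all genes tested and -0.13 for those at the minimum. Scaled by size factors of the DESeq2 type, the medians of ZNF genes and of all genes were -1.42 and -0.41. The listed oocyte markers summed to 14419 to 15089 CPM in 2-cell and 539 to 1090 CPM in 8-cell transcriptomes, and the part of oocyte RNA in the ZNF result was not tested. In 10 of the risen and 53 of the fallen genes the pools of the 2 stages did not overlap. Without the 8-cell polysome pool B, 74 genes fell and without the 2-cell pool A, 9 rose.

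**Figure D2:**
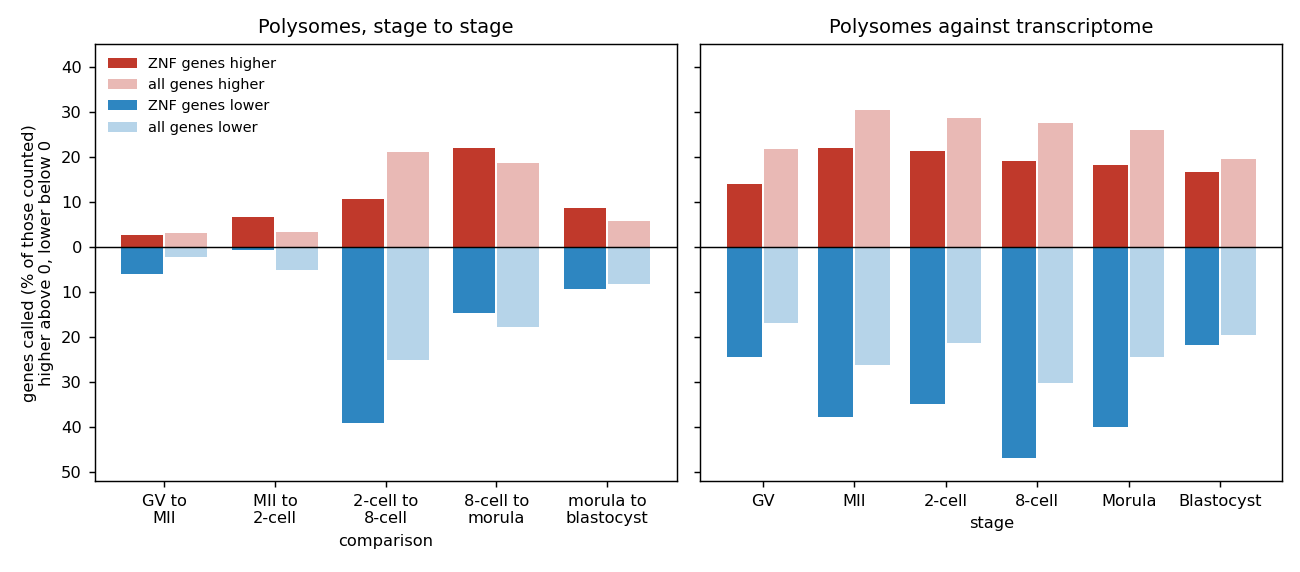
Percent of the ZNF genes counted and of all genes tested (y axis) that edgeR called higher (above 0) or lower (below 0) at an adjusted p below 0.05 and more than 2-fold, in polysome pools between consecutive stages (left) and in polysome pools against transcriptomes of each stage (right). Between the 2-cell and 8-cell stages 39.1% of the ZNF genes and 25.2% of all genes fell, and in 8-cell polysomes 46.9% of the ZNF genes and 30.3% of all genes were lower than in the transcriptome.

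Among the risen genes, ZNF296, which encodes a cofactor of reprogramming to pluripotency, went from 1.62 and 15.2 CPM in 2-cell polysomes to 720.0 and 659 CPM in 8-cell polysomes. The log2 change was 6.38 ± 1.11 (SE, edgeR adjusted p = 9.1e-05). ZNF394 went from 16.8 and 16.7 CPM to 552 and 491 CPM, a log2 change of 4.98 ± 0.43 (edgeR adjusted p = 6.7e-09). For both genes the pools of the 2 stages lay far apart. ZNF322 went from 1.87 and 0.201 CPM to 42.5 and 51.2 CPM (log2 change 5.52 ± 0.68, edgeR adjusted p = 7.9e-07). ZNF408, which is mutated in an inherited vascular disease of the retina, went from 21.1 and 35.4 CPM to 462 and 431 CPM. ZNF41, a KRAB protein gene, had no count in either 2-cell pool and 1.33 and 4.73 CPM in the 8-cell pools, which was at least 31.5-fold higher. It had no count in morula polysomes, at least 33.1-fold lower than at the 8-cell stage. ZNF41 reached the minimum at the 8-cell stage alone, so both changes are a description. Elsewhere it was counted in polysomes only in 1 MII pool, at 0.249 CPM.

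Some of the fallen genes were no longer counted in 8-cell polysomes at all. Of the 151 genes, fallen or not, 17 had no count in both 8-cell pools. Pool A, where 47 had none, held 22543737 counts in total and pool B 34662218. ZNF345 had 22.8 and 23.9 CPM in 2-cell polysomes and none in 8-cell polysomes, at least 213-fold lower. Its transcriptome level fell too, from 65.9, 69.5 and 41.5 CPM to 3.45, 0.767 and 3.99 CPM. ZNF705A had 13.4 and 15.0 CPM in 2-cell polysomes and none in 8-cell polysomes, at least 129-fold lower. Its transcriptomes held 67.3, 51.0 and 39.5 CPM at the 2-cell and 41.5, 20.9 and 35.2 CPM at the 8-cell stage, so its mRNA was present there without being counted in polysomes. ZNF572 and ZNF234 were likewise without counts, at least 75.1-fold and 47.5-fold lower. ZNF274, which brings SETDB1 and TRIM28 to the 3' ends of ZNF genes, had 142 and 152 CPM in 2-cell and 22.0 and 14.4 CPM in 8-cell polysomes (log2 change -2.99 ± 0.48, edgeR adjusted p = 2.4e-05). ZNF18 fell from 574 and 639 CPM to 68.1 and 71.2 CPM.

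**Figure D3:**
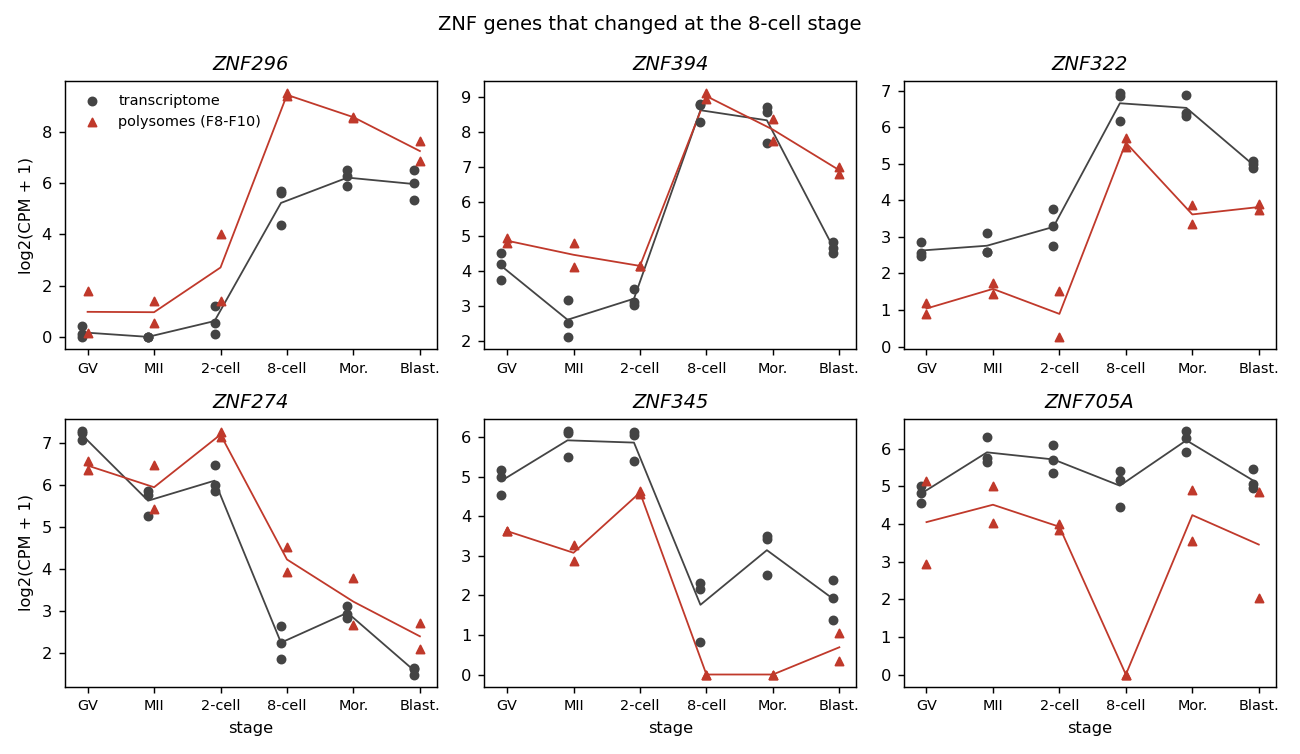
Levels of 6 ZNF genes on a log2(CPM + 1) axis across the 6 stages in transcriptomes (3 points per stage) and polysome pools (2 points per stage), with lines through the means. ZNF296, ZNF394 and ZNF322 have their highest polysome levels at the 8-cell stage, ZNF274 and ZNF345 fall there, and ZNF705A is at 0 in both 8-cell polysome pools while 20.9 to 41.5 CPM remain in the transcriptomes.

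A transcriptome change was counted only over genes that reached the minimum at a stage outside the pair compared. From the 2-cell to the 8-cell stage, 22 of 136 such genes rose and 40 fell in the transcriptome, with 26.6% and 23.5% of all genes and 29.7% and 27.8% of the genes at the same minimum. The share of fallen genes was 29.4%, close to the latter background, while the share of risen genes, 16.2%, was below it. Taken side by side for these 136 genes, 10 rose and 31 fell in both kinds of sample, 20 fell in polysomes and were not called in the transcriptome, and 3 (ZNF12, ZNF175 and ZNF565) fell in polysomes and rose in the transcriptome. ZNF565 had 11.9, 3.26 and 3.04 CPM in the 8-cell transcriptomes against 0.169, 0.731 and 0.914 CPM at the 2-cell stage, and went from 0 and 1.97 CPM to no count in polysomes.

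The difference between both changes was tested as an interaction. Of the 136 genes, 4 changed more upward and 21 more downward in polysomes than in the transcriptome, against 3.45% and 8.72% of all genes and 4.94% and 8.28% of those at the minimum. The ZNF shares were 2.94% and 15.4%. Without the 8-cell polysome pool B, 11 genes differed upward and 53 downward. The upward count was 1 or 2 without either 2-cell polysome pool, without the 2-cell transcriptome C or without the 8-cell transcriptome B. ZNF596, a KRAB protein gene, had the most upward difference: its transcriptomes held 56.8, 51.0 and 18.5 CPM at the 2-cell and 14.5, 13.2 and 11.4 CPM at the 8-cell stage, while its polysome pools held 6.84 and 8.60 CPM and then 24.4 and 20.4 CPM. The difference of the log2 changes was 3.23 ± 0.88 (edgeR adjusted p = 0.018). ZNF215 had a difference of 2.09 ± 0.49 (edgeR adjusted p = 0.0075), since it fell less in polysomes, from 149 and 145 CPM to 55.9 and 33.1 CPM, than in the transcriptome. ZNF350, the BRCA1 partner ZBRK1, had no count in 8-cell polysomes and 8.04, 5.46 and 2.73 CPM in the 8-cell transcriptomes, and differed downward (edgeR adjusted p = 0.0077), although its 2-cell pools were at 0 and 5.72 CPM.

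From the 8-cell stage to the morula, 33 ZNF genes rose and 22 fell in polysomes, 21.9% and 14.6% of the 151. Of the 151, 136 reached the transcriptome minimum at a stage outside this pair. Among the rest, ZNF35, ZNF189, ZNF268, ZNF565, ZNF567 and ZNF582 rose and ZNF41 and ZNF432 fell, and their changes are a description. All genes tested gave 18.5% and 17.7%, and genes at the minimum 20.7% and 18.4%, so the ZNF shares were near the background. Without the 8-cell polysome pool B, 59 rose, and without the morula pool B, 35 fell. ZNF705A rose from no count to 29.0 and 10.8 CPM, at least 181-fold higher, and ZNF189 from none to 16.4 and 6.48 CPM, at least 104-fold higher. ZNF189 reached the minimum only at the 8-cell stage and in morulae, so its rise is a description. ZNF350 rose from none to 4.71 and 18.9 CPM, at least 107-fold. The fallen genes included ZNF574, from 1211 and 1541 CPM to 243 and 519.5 CPM (log2 change -1.49 ± 0.34, edgeR adjusted p = 0.0016), and ZNF367, a regulator of cell cycle genes, from 8.03 and 12.6 CPM to 0.0357 and 0 CPM. In the transcriptome, 5 of 136 genes rose and 5 fell, with 6.6% and 7.75% of all genes, and with size factors of the DESeq2 type 3 rose and 6 fell. Leaving out any 1 of the 6 transcriptomes gave 2 or 3 risen and 2 to 4 fallen genes. The interaction was called upward for 14 and downward for 10 of 136 genes (7.06% and 5.41% of all genes), and 12 and 15 when scaled by library totals. The upward count was 38 without the 8-cell polysome pool B and the downward count 20 without the morula polysome pool B.

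The other polysome transitions involved fewer genes. From GV to MII, 4 of the 151 rose and 9 fell (3.03% and 2.33% of all genes; 2 and 9 when scaled by library totals). The fallen genes included ZNF397, the promoter-binding ZNF143 (129 and 118 CPM to 19.6 and 29.0 CPM, log2 change -1.96 ± 0.51, edgeR adjusted p = 0.025) and ZNF410, which activates CHD4 (105 and 56.8 CPM to 28.0 and 18.4 CPM). ZNF574 rose from 293 and 272 CPM to 686 and 644 CPM (log2 change 1.63 ± 0.34, edgeR adjusted p = 0.0052), a call lost without either GV pool. No gene rose without either GV pool and 2 rose without the MII pool A, and leaving out any 1 of the 4 pools gave 3 to 5 fallen genes. From MII to the 2-cell stage, 10 rose and 1 (ZNF37A) fell, against 3.37% and 5.14% of all genes and 4.06% and 6.94% of those at the minimum. ZNF598, the ligase that marks collided ribosomes, rose from 5.48 and 3.70 CPM to 38.7 and 45.3 CPM (log2 change 2.87 ± 0.69), the most marked with ZNF526 (10.4 and 4.97 CPM to 54.1 and 89.4 CPM). Without the MII polysome pool B, 2 genes rose, and without the 2-cell pool A, 5 rose and 3 fell. ZNF592, of a chromatin complex with ZMYND8, rose from 42.0 and 21.9 CPM to 162 and 119 CPM. ZNF598 and ZNF592 reached the minimum at the 2-cell stage alone, so their rises to that stage are a description. Of the 10 genes that rose, 4 (ZNF304, ZNF397, ZNF410 and ZNF830) were among the 9 that fell from GV to MII. The MII pools enter both comparisons.

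From the morula to the blastocyst, 13 ZNF genes rose and 14 fell in polysomes (5.79% and 8.13% of all genes). Among the risen genes, ZNF404 reached the transcriptome minimum in blastocysts alone, so its rise is a description. Without the morula pool B, 28 genes rose, without the blastocyst pool B, 7 rose and 5 fell, and without the morula pool A, 22 fell. ZNF526 fell from 10.2 and 13.7 CPM to 2.13 and 1.10 CPM (log2 change -2.82 ± 0.59, edgeR adjusted p = 0.0031). ZNF879 went from 0.500 and 0.305 CPM to no count, at least 4.02-fold lower, and ZNF165, a SCAN protein gene, from none to 6.42 and 4.34 CPM, at least 58.7-fold higher. In the transcriptome, 3 of 134 genes rose and 26 fell, against 10.2% and 11.4% of all genes and 10.3% and 17% of those at the minimum. The median log2 change was -0.84 for the ZNF genes, -0.01 for all genes and -0.24 for genes at the minimum. ZNF394, at 206, 421 and 382 CPM in morulae and 24.5, 21.9 and 27.8 CPM in blastocysts, and ZNF207, at 412, 431 and 521 CPM and then 67.6, 73.6 and 64.5 CPM, were among the fallen. From GV to MII, 4 of 151 rose and 18 fell in the transcriptome (6.61% and 10.5% of all genes), and 0 and 26 when scaled by library totals. Without the GV transcriptome A, 1 rose and 11 fell, and without the GV or the MII transcriptome C, 2 rose. From MII to the 2-cell stage, 9 of 138 rose and 1 fell (6% and 5.96% of all genes), and 21 and 0 when scaled by library totals. The fallen gene was called only with all libraries or without the MII transcriptome B.

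Polysomes were then set against the transcriptome of the same stage, over genes that reached the minimum at another stage. In GV oocytes, 21 of 151 ZNF genes were higher and 37 lower in polysomes (all genes 21.6% and 17%, genes at the minimum 20.8% and 23.8%). In MII oocytes, 33 of 151 were higher and 57 lower (all genes 30.4% and 26.2%, genes at the minimum 28.6% and 35.3%). At the 2-cell stage, 30 of 141 were higher and 49 lower (all genes 28.5% and 21.3%, genes at the minimum 27.4% and 29.7%). Without the GV polysome pools A and B in turn, 24 and 20 genes were lower in GV oocytes, without the GV transcriptome B 13 were higher, and without the 2-cell polysome pool A 31 were lower at the 2-cell stage. The lower shares, 24.5%, 37.7% and 34.8%, were above those of all genes. In GV and MII oocytes they were near those of genes at the same minimum, 23.8% and 35.3%. At the 2-cell stage the lower share was above the 29.7% of genes at the minimum. The higher shares at these 3 stages, 13.9%, 21.9% and 21.3%, were below both backgrounds. At the 8-cell stage, 28 of 147 were higher and 69 lower, and the lower share of 46.9% stood over 30.3% of all genes and 33.6% of genes at the minimum. In morulae, 27 of 148 were higher and 59 lower, and the lower share of 39.9% stood over 24.5% and 29.4%. The higher shares, 19.0% and 18.2%, were below those of all genes, 27.4% and 25.9%. In blastocysts, 23 of 138 were higher and 30 lower (all genes 19.4% and 19.5%, genes at the minimum 22.3% and 24.3%), and 16 and 37 when scaled by library totals. From GV oocytes to blastocysts, the median log2 differences of the ZNF genes were -0.93, -1.44, -1.01, -1.48, -1.04 and -0.31. Genes at the minimum gave -0.37, -0.58, -0.34, -0.42, -0.24 and -0.31.

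The other fractions of the same gradients were set against the same transcriptomes, as a description with no test, since the genes had been called against these transcriptomes. Of the 69 genes lower in 8-cell polysomes than in the transcriptome, 53 had both pools of the free-RNA fractions F1 and F2 below all 3 transcriptomes, and 63 had both monosome pools below them. Of the 28 higher genes, 22 had both F1 and F2 pools above all transcriptomes. In GV oocytes this held for 36 of the 37 lower and 12 of the 21 higher genes, and in blastocysts for 26 of the 30 lower and 5 of the 23 higher genes. The same count over genes that were not called was not made. Gradient fractions and transcriptomes were separate RNA preparations, so by design a difference between preparations and one of ribosome loading cannot be told apart in this comparison.

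At all 6 stages, 8 of the 151 ZNF genes were higher in polysomes than in the transcriptome, against 9.42% of all genes tested, and 9 were lower, against 5.21%. As a share of the 151, the higher set was below that of all genes and the lower set was near it. The transcriptomes in this comparison had also chosen the 151, and genes at the same minimum were not counted in this way. Both shares are therefore a description. The higher ones were ZNF444, ZNF574, ZNF16, ZNF18, ZNF408, ZNF511, ZNF524 and ZNF593. For ZNF574, the polysome pools held 293 and 272 CPM at the GV stage, 686 and 644 CPM at MII, 639.7 and 956 CPM at the 2-cell stage and 1211 and 1541 CPM at the 8-cell stage, while its 18 transcriptomes held 5.81 to 26.2 CPM. The groups did not overlap at any stage. Its log2 difference was 4.19 ± 0.32 at the GV stage, 6.41 ± 0.35 at MII, 5.95 ± 0.34 at the 8-cell stage and 2.71 ± 0.31 in blastocysts (edgeR adjusted p = 8.9e-10, 1.1e-12, 8.1e-12 and 2.8e-07). ZNF444 had 117 and 173 CPM in GV polysomes against 3.44, 2.26 and 2.65 CPM in the transcriptomes. It reached the minimum in blastocysts alone, so that its blastocyst values, 74.3 and 77.0 CPM against 33.3, 9.05 and 15.2 CPM, are a description. ZNF593, whose protein acts in assembly of the large ribosomal subunit, had 111 and 224 CPM in MII polysomes against 19.1, 15.8 and 14.7 CPM.

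The lower ones were ZNF830, ZNF518A, ZNF451, ZNF354A, ZNF879, ZNF277, ZNF638, ZNF507 and ZNF106. ZNF830, which encodes a spliceosome-associated protein, had 0.280 to 3.41 CPM over the 12 polysome pools and 25.8 to 121 CPM over the 18 transcriptomes. Its log2 difference ran from -6.44 ± 0.49 in MII oocytes to -3.05 ± 0.40 at the 8-cell stage (edgeR adjusted p = 9.3e-11 and 9.6e-07). ZNF451, a SUMO ligase, had 0.797 to 9.36 CPM in polysomes and 15.0 to 76.6 CPM in transcriptomes. ZNF638 had 49.0 and 73.2 CPM in 8-cell polysomes and 417, 409 and 359 CPM in the transcriptomes (log2 difference -2.62 ± 0.38, edgeR adjusted p = 4.1e-06). No polysome pool of these 3 genes overlapped the transcriptomes of its stage.

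**Figure D4:**
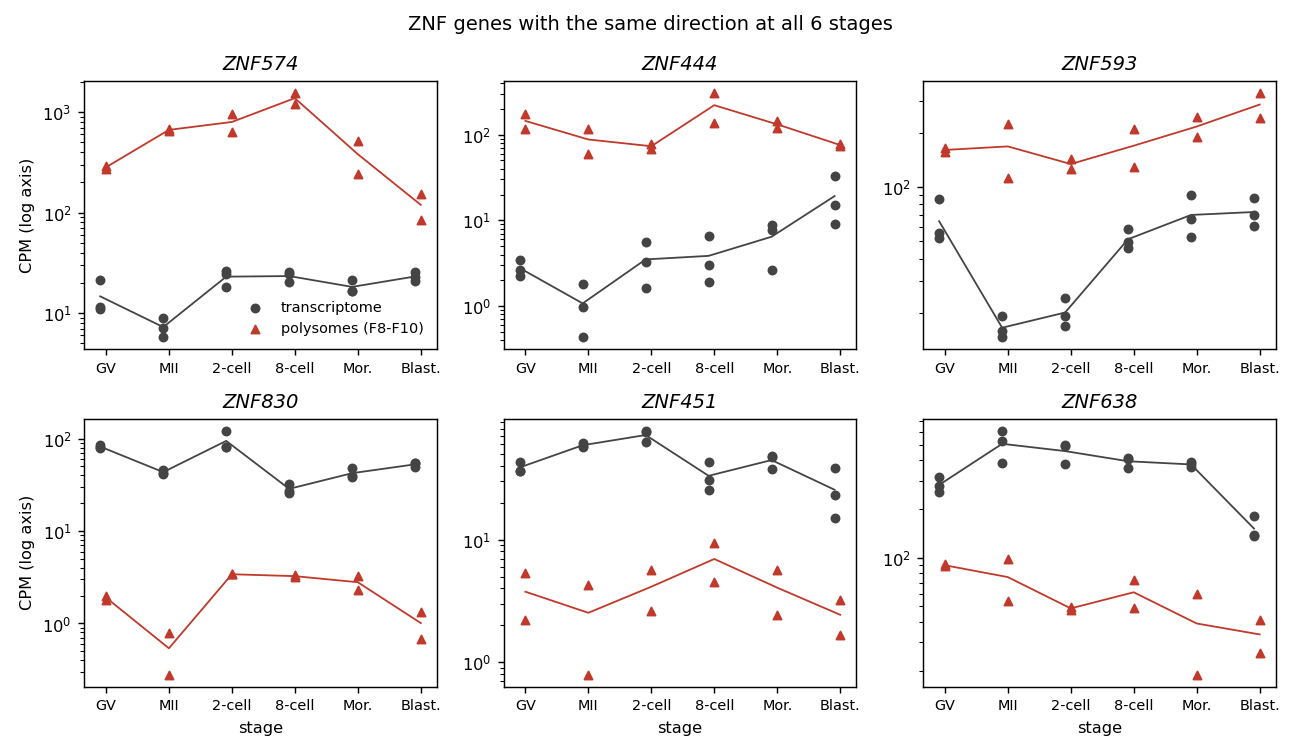
CPM (log axis) of 3 ZNF genes that were higher and 3 that were lower in polysome pools than in transcriptomes at all 6 stages, with 2 pools and 3 transcriptomes as points per stage and lines through the means. For ZNF574 every polysome point, 85.0 CPM or more, lies above every transcriptome point, 26.2 CPM or less, and for ZNF830 every polysome point, 3.41 CPM or less, lies below every transcriptome point, 25.8 CPM or more.

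Polysome and monosome pools come from the same gradients, and this comparison does not involve the transcriptomes that chose the genes. No ZNF gene was called in GV, MII or 2-cell samples by edgeR's quasi-likelihood test, against 0.316% higher and 0.182% lower, 0.262% and 0.175%, and 0% and 0% of all genes. At an unadjusted p below 0.05, 2 ZNF genes were higher and 9 lower at the GV stage, 2 and 9 at MII and 4 and 4 at the 2-cell stage, and DESeq2 called 0 and 5, 2 and 2, and 0 and 2. The likelihood ratio test called 2 lower in MII oocytes. At the 8-cell stage, 1 gene was higher in polysomes and 12 were lower (4.55% and 4.8% of all genes, 6.53% and 4.99% of genes at the minimum). The split was 4 and 7 when scaled by library totals, and the lower count was 3 without the 8-cell polysome pool A or the monosome pool A and 4 without the monosome pool B. The higher count was 0 to 4 without any 1 of the 4 pools. The gene that was higher was ZNF638, with 49.0 and 73.2 CPM in polysomes and 4.83 and 8.00 CPM in monosomes (log2 difference 2.93 ± 0.63, edgeR adjusted p = 0.013).

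Of the genes lower in 8-cell polysomes than monosomes, ZNF574 had 1211 and 1541 CPM in polysomes and 4746 and 5443 CPM in monosomes. ZNF329 had 0 and 0.0865 CPM against 52.1 and 17.8 CPM (log2 difference -9.72 ± 1.86, edgeR adjusted p = 0.0078). ZNF532 and ZNF592, partners in the ZMYND8 complex, were both lower: ZNF532 had 3.33 and 5.91 CPM against 42.0 and 59.7 CPM, and ZNF592 had 33.9 and 33.1 CPM against 131 and 152 CPM. ZNF705A, without a count in polysomes, had 7.50 and 3.46 CPM in monosomes, at least 49.9-fold higher there. The others were ZNF786, ZNF496, ZNF621, ZNF76, ZNF691, ZNF274 and ZNF622. With the gradient as a block, 11 genes were lower, 8 of them among these 12, and ZNF705A, ZNF76, ZNF274 and ZNF622 were not called. In all 12 the polysome and monosome pools did not overlap. In morulae 0 were higher and 1, ZNF367, lower (0.699% and 0.888% of all genes), with 0.0357 and 0 CPM in polysomes and 33.8 and 10.8 CPM in monosomes. In blastocysts 0 were higher and 1, ZNF879, lower (0.8% and 0.632%), and with the block ZNF398 was called in its place. Leaving out 1 pool gave 0 to 2 higher and 0 to 5 lower genes in morulae and 0 to 3 and 0 to 2 in blastocysts. At an unadjusted p below 0.05, edgeR gave 8 higher and 20 lower genes in morulae and 20 and 8 in blastocysts, and DESeq2 called 3 and 17 and 13 and 6.

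Along the 8-cell gradient, ZNF574 peaked on average in F4, with 5742 and 6767 CPM, and still had 1191 and 990.2 CPM in F10. ZNF296 peaked in F3 in both gradients, with 2551 and 1730 CPM, and had 589 and 661 CPM in F10. ZNF394 also had its highest mean in F3, with 1070.2 and 1166 CPM, and its lowest mean in F6, with 297 and 244 CPM. ZNF444 had its highest mean in F10, where the gradients differed, with 526 and 101.0 CPM. All of these fraction levels of ZNF574, ZNF296 and ZNF444 were above the 8-cell transcriptomes, which held at most 25.6, 50.7 and 6.61 CPM, free-RNA fractions F1 and F2 included.

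**Figure D5:**
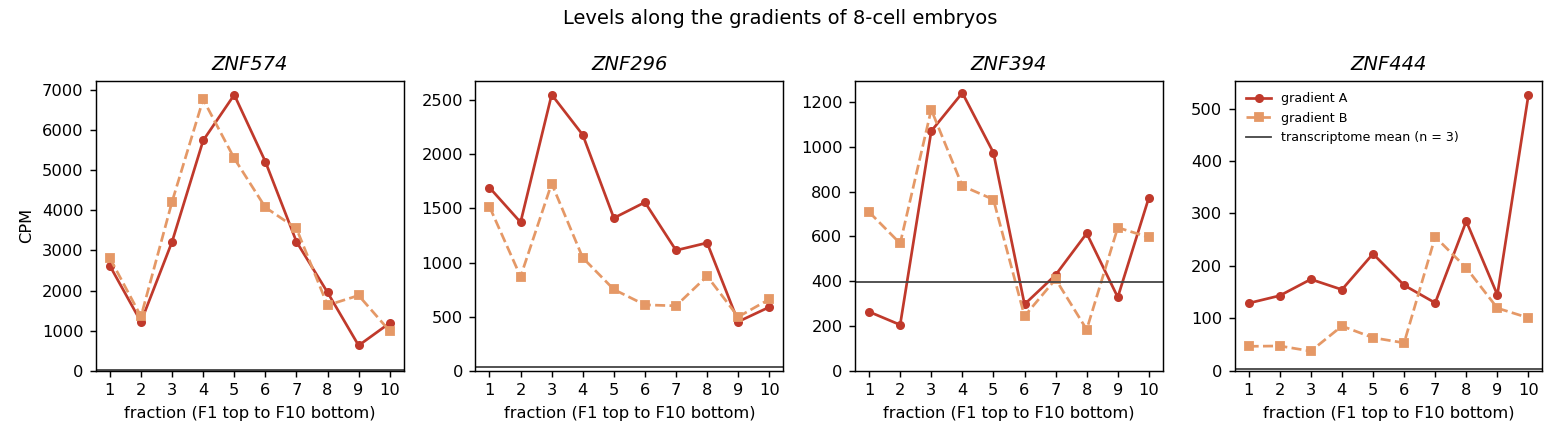
CPM of 4 ZNF genes in the 10 fractions of 8-cell gradients A and B, from free RNA (F1) to polysomes (F10), with the mean of the 3 transcriptomes as a line. On the mean of both gradients ZNF574 peaks in F4 (5742 and 6767 CPM) and ZNF296 and ZNF394 in F3, and the fractions of ZNF574, ZNF296 and ZNF444 all lie above the transcriptome line.

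The genes were also read by what their proteins do. Of 13 listed RNA and ribosome factors, 10 were members. From the 2-cell to the 8-cell stage 0 of the 10 passed the edgeR test with a 2-fold change in polysomes in either direction, with a median log2 change of -0.08 against -0.26 over all genes. ZNF622, which acts in maturation of the large ribosomal subunit, rose in polysomes from 17.2 and 19.8 CPM in GV to 23.5 and 42.6 CPM in MII oocytes (log2 change 1.22 ± 0.35, edgeR adjusted p = 0.042), where its transcriptome level was 299.6, 207 and 249 CPM and then 33.8, 37.5 and 22.5 CPM. Its call is lost with library totals, with no filter on low counts and with the replicate letter as a block. ZNF326, of a complex that links transcript elongation to splicing, was lower in polysomes than in the transcriptome at 5 of the 6 stages. Of the 23 listed chromatin and transcription cofactors, 14 were members, and from the 2-cell to the 8-cell stage 4 rose (ZNF296, ZNF644, ZNF281 and ZNF131) and 6 fell in polysomes (ZNF518A, ZNF532, ZNF592, ZNF518B, ZNF24 and ZNF143). These were 28.6% and 42.9% of the 14, beside 10.6% and 39.1% of the 151 ZNF genes and 21% and 25.2% of all genes. Genes at the transcriptome minimum gave 25.9% and 25%. ZNF644, a partner of the methyltransferases G9a and GLP, had 0.306 and 0.301 CPM and then 0 and 8.42 CPM, so its rise rests on gradient B. ZNF131 had 3.28 and 4.99 CPM and then 21.3 and 11.6 CPM.

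Of the 9 listed KRAB proteins with a known target, 6 were members. ZNF274 and ZNF350 fell in polysomes from the 2-cell to the 8-cell stage, ZNF350 from 0 and 5.72 CPM to no count. In that transition 39.1% of the 151 ZNF genes and 25.2% of all genes fell. ZNF350, ZNF268 and ZNF382 rose from the 8-cell stage to the morula, where 21.9% of the 151 and 18.5% of all genes rose. ZNF268 reached the minimum only at the 8-cell stage and in morulae, so its rise is a description. ZNF382 had 15.7 and 21.9 CPM and then 58.1 and 48.6 CPM in polysomes (log2 change 1.92 ± 0.34, edgeR adjusted p = 0.00018), and 47.5, 57.3 and 50.7 CPM and then 189, 179 and 213 CPM in transcriptomes. ZNF263 and ZNF420 were not called in any polysome transition. Of the spindle list, ZNF207 was the 1 member of 2 genes, and it was lower in polysomes than in the transcriptome at each stage but the blastocyst, where its log2 difference was 0.20. In 8-cell embryos it had 66.3 and 111 CPM in polysomes against 372, 396 and 371 CPM.

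Among cofactors of KRAB proteins, more rose than fell at the 8-cell stage. Of the 30 listed, 11 rose and 5 fell in polysomes between the 2-cell and the 8-cell stage, with a median log2 change of 0.27. That is 36.7% risen and 16.7% fallen, beside 21% and 25.2% of all genes and a median of -0.26 over all genes. Genes at the transcriptome minimum gave 25.9% and 25%, with a median of -0.13. TRIM28, the corepressor itself, had 110.1 and 107 CPM in GV, 53.9 and 38.9 CPM in 2-cell, 338 and 330.0 CPM in 8-cell and 486 and 595 CPM in morula polysomes. From the 2-cell to the 8-cell stage it rose by 2.88 ± 0.36 on the log2 scale. SETDB1 fell from 96.4 and 102 CPM to 48.3 and 31.4 CPM, and UHRF1, which guides maintenance of DNA methylation, fell from 1254 and 1511 CPM to 286 and 245 CPM. CBX3, an HP1 protein, rose from 0.704 and 1.07 CPM to 27.8 and 18.9 CPM. ZFP57, in the list though itself a KRAB protein that protects imprints, had 0.932 and 66.5 CPM in the 8-cell pools. Its level there rests on gradient B.

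Place in the genome and gene family were compared in the same way. A member was called clustered if the next protein-coding gene on either side had a ZNF, ZFP, ZSCAN or ZKSCAN symbol. A single such neighbour was enough, and zinc finger genes with other symbols did not count. By the RefSeq gene order, 62 members were clustered in this sense, 84 were not, and 5 were not matched. From the 2-cell to the 8-cell stage, 6 clustered genes rose and 28 fell in polysomes (9.68% and 45.2%), and 10 of the others rose and 30 fell (11.9% and 35.7%). The median log2 changes were -1.67 and -0.77, and the difference between both groups was not tested. The 45 other C2H2 genes at the minimum, with ZFP, ZBTB, ZSCAN and ZKSCAN symbols, gave 11 risen and 13 fallen (24.4% and 28.9%) with a median of -0.68. These shares were near those of all genes, 21% and 25.2%, and of genes at the minimum, 25.9% and 25%, while the fallen shares of clustered and other ZNF genes were above both. The median of the 45 genes was below -0.26 of all genes and -0.13 of genes at the minimum. It was near the -0.77 of the ZNF genes not called clustered. The 11 risen genes included ZSCAN4 and ZFP42, which were picked after their values were seen. The 13 fallen genes are not named here, so these names do not describe the 45 as a set. Of the 13 members with uncertain read assignment, 1 rose and 7 fell.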

How the data were processed

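RNA of 120 gradient fractions and 18 total transcriptomes was measured after SMART-Seq v4 amplification and Nextera XT library preparation, with no strand information. The deposited table holds estimated counts per gene symbol, which the authors made with Salmon (version not given in the sources used here). The paper and the submitters' processing notes name different cattle genome builds (the notes UMD3.1), so no coordinates are given. Of the deposited values, 11.7% were not whole numbers, and they were rounded before testing. All columns matched a sample by label, and no 2 of 78 replicate pairs were identical.

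ZNF genes were kept at a mean of at least 10 CPM over the 3 transcriptomes of a stage. Polysome transitions were counted over all 151 members, also those that reached this minimum only at the stages compared. The members and gene lists were chosen with earlier results of these data known. Counts of fractions F8 to F10 and of F3 to F5 were summed per gradient. One edgeR fit (4.0.16, R 4.3.3; TMM scaling, filterByExpr, glmQLFit and glmQLFTest) took the 12 polysome pools and 18 transcriptomes with a term per stage and kind, and another took the polysome and monosome pools. P-values were adjusted by Benjamini and Hochberg over all genes tested. A call needed an adjusted p below 0.05 and more than a 2-fold change, and for interactions the adjusted p alone. All 151 members passed the filter on low counts. Where a group had no count, the fold was set against 3 counts per library and is a lower bound. The scripts were tested on simulated data. The paper calls the replicates of the fractions biological, and p-values measure the spread between these samples.

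Genes were named by rule: the 3 highest per stage in transcriptomes, the 4 largest called changes per direction in each polysome transition, the 3 largest per direction against transcriptomes, monosomes and in each interaction, those called at all 6 stages, the listed roles and the KRAB cofactors. Others (ZNF408, ZNF18, ZNF410, ZNF565, ZNF274 beside monosomes, ZSCAN4, ZFP42 and the full lists of called genes) were named after their values were seen. RefSeq's cattle gene table (ARS-UCD2.0) gave gene order only. Polysome and monosome pools of a gradient pair by design, and the correlation of their deviations from group means was -0.015 to 0.148 per stage. The alternatives were DESeq2 (1.42.0), the likelihood ratio test, other scalings, no filter, F9 and F10 as polysomes, a replicate block and leaving out each library. Total counts ran from 1229382 to 17342859 per fraction, and low counts limit the values of genes near 0.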

Additional observations from a re-analysis of the deposited data

Results flagged for a closer look

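The changes in polysomes and in transcriptomes differed, by a test of the difference itself, for some ZNF genes. From the 2-cell to the 8-cell stage 4 genes differed upward and 21 downward, and from the 8-cell stage to the morula 14 and 10. From the 2-cell to the 8-cell stage the differences of the log2 changes with the largest size were 3.23 for ZNF596, 2.09 for ZNF215 and 2.03 for ZNF689 upward, and -11.51 for ZNF175, -10.51 for ZNF350 and -10.42 for ZNF565 downward. The downward values belong to genes without a count in 8-cell polysomes, so their size depends on the prior count of the fit. ZNF350 and ZNF565 had no count in the 2-cell polysome pool A either, so their values rest on the 2-cell pool B. From the 8-cell stage to the morula they were 11.35 for ZNF175, 10.57 for ZNF705A and 9.96 for ZNF572 upward, and -9.32 for ZNF165, -7.96 for ZNF214 and -7.50 for ZNF367 downward. The ZNF214 value turned in sign without the 8-cell polysome pool B.

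ZNF counts were also found in the free-RNA fractions F1 and F2, which enter no test. More than 3 counts in both gradients were found there for 126 of the 151 genes in GV oocytes, 129 in MII oocytes, 132 at the 2-cell stage, 86 at the 8-cell stage, 79 in morulae and 77 in blastocysts.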

How the results depend on the processing

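Outside the fits that left out a library, 298 recomputed counts of called ZNF genes stayed within 1.5 times of the reported count and 54 did not. The cause was not tested. With library totals, polysome changes from GV to MII were 2 higher, from MII to 2-cell 16 higher, transcriptome changes from GV to MII 0 higher, from MII to 2-cell 21 higher and 0 lower, and from 8-cell to morula 3 higher, and 8-cell polysomes against monosomes gave 4 higher and 7 lower. With size factors of the DESeq2 type, transcriptome changes from 8-cell to morula were 3 higher, and morula polysomes against monosomes gave 2 lower. Without a filter, polysome changes from GV to MII were 2 higher, and transcriptome changes 1 higher from GV to MII and 0 lower from MII to 2-cell. With F9 and F10 as polysomes, polysome changes were 2 higher from GV to MII and 2 lower from MII to 2-cell, GV polysomes against transcriptome 11 higher, the interaction from 2-cell to 8-cell 2 higher, and polysomes against monosomes 0 higher and 7 lower at the 8-cell stage, 0 lower in morulae and 0 lower in blastocysts. Counting all members, transcriptome changes from morula to blastocyst were 6 higher.

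With the likelihood ratio test, polysome changes were 14 lower from GV to MII, 17 higher and 3 lower from MII to 2-cell and 22 lower from morula to blastocyst, transcriptome changes 7 higher from GV to MII and 14 higher from MII to 2-cell, and polysomes against monosomes 2 lower in MII oocytes, 8 higher and 19 lower at the 8-cell stage, 2 higher and 10 lower in morulae and 12 higher and 4 lower in blastocysts. With DESeq2 these were 14 lower, 19 higher and 3 lower, and 20 higher from morula to blastocyst in polysomes, 11 higher from GV to MII, 15 higher from MII to 2-cell, 8 lower from 8-cell to morula and 5 higher from morula to blastocyst in transcriptomes, and against monosomes 5 lower in GV, 2 higher and 2 lower in MII, 2 lower in 2-cell, 13 higher and 27 lower in 8-cell, 3 higher and 17 lower in morula and 13 higher and 6 lower in blastocyst samples.

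The replicate letters did not pair polysome pools with transcriptomes (correlations of -0.067 to 0.026). With the replicate block, 1 gene rose and 8 fell in polysomes from GV to MII, 14 and 55 from 2-cell to 8-cell, and 31 and 21 from 8-cell to morula, and no count other than the first moved by more than 1.5 times. With the gradient as a replicate block, polysomes against monosomes gave 1 higher and 11 lower at the 8-cell stage.

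Leaving out 1 library at a time gave, for genes higher and lower, 0 to 4 and 3 to 5 in polysomes from GV to MII, 2 to 10 and 1 to 3 from MII to 2-cell, 9 to 18 and 44 to 74 from 2-cell to 8-cell, 33 to 59 and 20 to 35 from 8-cell to morula and 7 to 28 and 5 to 22 from morula to blastocyst. In transcriptomes these were 1 to 4 and 11 to 17, 7 to 10 and 0 to 1, 17 to 21 and 34 to 40, 2 to 3 and 2 to 4, and 2 to 3 and 18 to 23. Polysomes against transcriptome gave 13 to 17 and 20 to 32 in GV, 27 to 33 and 40 to 55 in MII, 20 to 26 and 31 to 45 in 2-cell, 23 to 30 and 64 to 82 in 8-cell, 24 to 25 and 48 to 73 in morula and 18 to 19 and 23 to 28 in blastocyst samples. Polysomes against monosomes gave 0 to 0 in GV, MII and 2-cell samples, 0 to 4 and 3 to 11 at the 8-cell stage, 0 to 2 and 0 to 5 in morulae and 0 to 3 and 0 to 2 in blastocysts. The interaction gave 1 to 11 and 16 to 53 from 2-cell to 8-cell and 12 to 38 and 8 to 20 from 8-cell to morula. Where 1 polysome pool is left, it is assumed to vary like the other groups. Of 170 named gene and comparison pairs, 1909 recomputed values kept direction and side of the threshold, 148 kept the direction and lost the call, and 1 turned: the difference for ZNF214, interaction 8-cell to Morula, was -8.93 without the 8-cell polysome pool A and 0.027 without pool B.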
